A study of Mus musculus with 12 samples.

Results

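The genes described here carry a Ccdc symbol, which stands for coiled-coil domain containing. They were taken from the deposited expression table by their symbols (Ccdc followed by a number), with 1 pseudogene symbol left out, which gave 135 of the 28643 symbols used. Of the 135, 132 are gene symbols and 3 are transcripts from the opposite strand of a Ccdc locus (Ccdc34os, Ccdc42os and Ccdc142os). GENCODE M21 held 134 of them, 131 of these as protein coding, and they lay on 20 chromosomes, with 14 on chromosome 11 and 12 each on chromosomes 7 and 9, so the symbol does not mark a cluster in the genome. The single unmatched symbol was Ccdc94.

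Spermatids were sorted from the testes of 8-week-old male mice, and cycloheximide, which halts ribosomes on the mRNA, was present throughout the sort. The knockout, Igf2bp3-/-, carried a Cas9-made frameshift on both copies of Igf2bp3, which encodes a reader of N6-methyladenosine in RNA. The control, Igf2bp3+/-, carried the same kind of allele on 1 copy by the sample titles, although the columns of the deposited table call these libraries WT. No group is titled as wild-type, and by the study's methods knockout males with impaired fertility were chosen for such experiments. Each genotype had 3 replicates of RNA-seq, which measured the total mRNA, and 3 of RNC-seq, which measured mRNAs that carried 4 or more ribosomes, 12 libraries in all. Values are FPKM, a read density corrected for transcript length and library size. The study's methods describe spermatids as taken from each mouse and call the replicates biological, and they give both assays as parts of the same cell extract. The labels do not say which mouse a library came from or which libraries share an extract, so the libraries were compared as separate samples and p-values measure the spread between them.

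A coiled coil is a rod of wound alpha helices, and the Ccdc symbols were given for that predicted feature alone, before a function was known. The proteins therefore share a shape and not a pathway. Many of those since studied are building blocks of the axoneme, the microtubule core of the sperm tail, or of the centrosome, the acrosome and the head-to-tail junction, which a round spermatid must build while many of its mRNAs are held for later translation.

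Relative depth, read from the lowest FPKM steps and set to 1 in the deepest library (Igf2bp3-/- RNA-seq replicate 1), was between 0.38 and 0.562 in the other 11, and a single fragment on a transcript of 1 kb was worth between 0.0207 and 0.0543 FPKM. The markers of round spermatids were at a summed 1050 to 1210 FPKM in Igf2bp3+/- RNA-seq and 1390 to 1620 in Igf2bp3-/- RNA-seq, with 9 of 9 fitted higher in Igf2bp3-/- and none past the limit. Igf2bp3 itself was at 38.2, 38.6 and 33.4 FPKM in the Igf2bp3+/- and 31.7, 32.5 and 31.4 FPKM in the Igf2bp3-/- RNA-seq libraries (log2 difference -0.20 ± 0.09 SE, adjusted p = 0.335). A frameshift need not lower the transcript, so this level gives no check of the genotype. Leydig cell markers, of another testis cell, summed to 15.3 to 22.7 FPKM in Igf2bp3+/- and 48.7 to 54.9 in Igf2bp3-/- RNA-seq (7 of 7 fitted higher, 4 past the limit) and to 6.71 to 14.3 against 51.4 to 102 in RNC-seq. Other somatic markers were lower in level and also fitted higher in Igf2bp3-/- RNA-seq: those of Sertoli cells summed to 7.3 to 8.35 against 11.8 to 12.8 FPKM (5 of 6 tested fitted higher, 1 past the limit, with Wt1 and Gata4 at means below 0.1), those of peritubular and stromal cells to 2.25 to 2.45 against 5.52 to 6.77 (5 of 6, 1 past) and those of macrophages and blood to 6.18 to 8.06 against 13 to 14.4 (7 of 7, 2 past). Spermatocyte markers summed to 88.2 to 113 FPKM in Igf2bp3+/- and 105 to 133 in Igf2bp3-/- RNA-seq (7 of 8 fitted higher). Elongating spermatid markers summed to 9920 to 12600 against 11000 to 11100 (2 of 9 fitted higher). Spermatogonia markers summed to 7.41 to 10.4 against 7.59 to 9.66 (2 of 5 tested fitted higher). None of these germ cell markers passed the limit in RNA-seq. The part of somatic and other germ cells in the genotype comparisons was not tested. These libraries are bulk samples, in which fewer cells of a type and less RNA per cell cannot be told apart.

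Ccdc genes were more often well expressed in these spermatids than the average symbol. Of the 134 members held by GENCODE, 131 are protein coding, whereas all symbols include noncoding ones. Levels were not compared with protein-coding genes alone. In Igf2bp3+/- RNA-seq, 106 of the 135 (78.5%) had a mean FPKM above 1, against 43.2% of all symbols, and 73 (54.1%) were above 10, against 18.5%. Their median was 12.5 FPKM, against 0.553 over all symbols, and 16 were above 100 FPKM. Their joint share of the summed FPKM was 1.22% to 1.34% in RNA-seq. The level was concentrated, since 10 members held 45.3% of the members' sum in Igf2bp3+/- RNA-seq. Replicates were closest in RNA-seq: among members at a mean of at least 1 FPKM, the median coefficient of variation was 8.70% in Igf2bp3+/- and 9.89% in Igf2bp3-/- RNA-seq, but 14.8% and 20.3% in the RNC-seq of these genotypes.

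The highest member was Ccdc136, whose protein is needed for the acrosome, the enzyme-filled cap of the sperm head (GRCm38 chr6:29396309-29426994, plus strand). It was at 651, 651 and 703 FPKM in Igf2bp3+/- RNA-seq, clear of every other member. Ccdc54 (283, 292 and 236 FPKM), Ccdc30 (286, 276 and 237 FPKM) and Ccdc91 (258, 273 and 242 FPKM), which encodes a Golgi adaptor-binding protein, followed, and their libraries overlapped with one another. Ccdc113 was at 219 ± 18.2 FPKM, Ccdc181 at 209 ± 13.8, Ccdc38 at 205 ± 4.13, Ccdc60 at 186 ± 15.7, Ccdc65 at 179 ± 4.44 and Ccdc105 at 174 ± 12.8 (SD, n = 3), and each overlapped with its neighbour in this order. Apart from Ccdc60, these are genes of the sperm tail: Ccdc113 and Ccdc65 belong to regulators of the dynein arms, Ccdc181 binds microtubules, Ccdc105 lines the tail's microtubule doublets and Ccdc38 acts in tail formation.

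**Figure D1:**
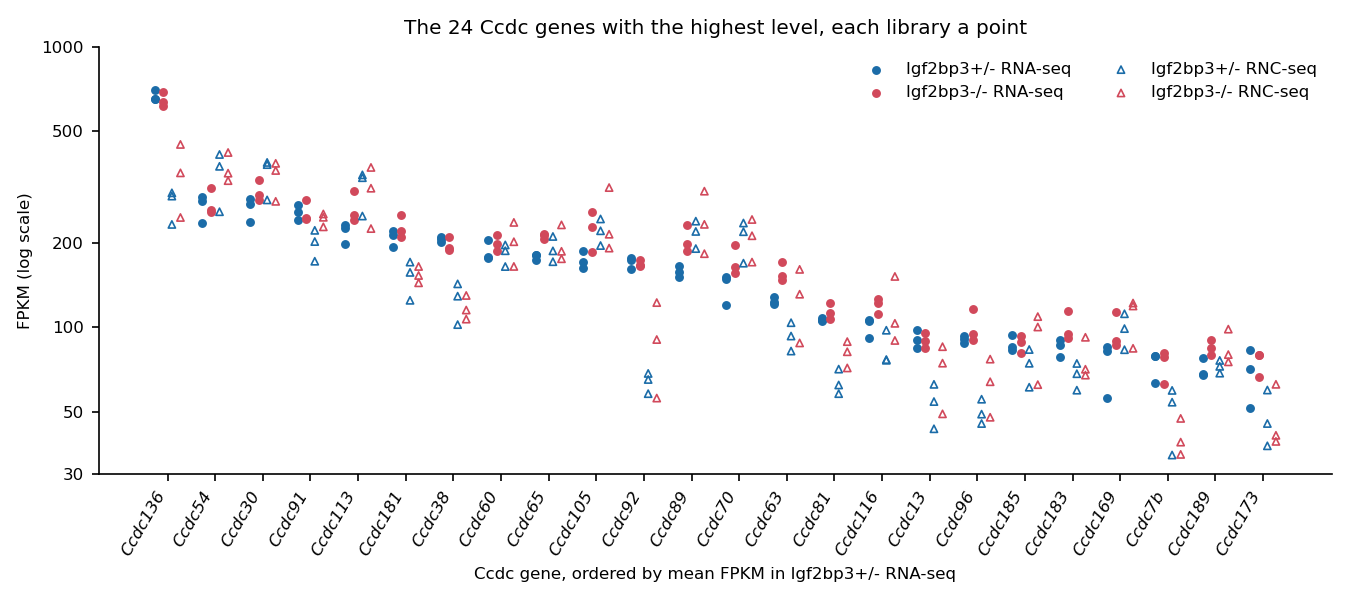
FPKM (log scale) of the 24 Ccdc genes with the highest mean in Igf2bp3+/- RNA-seq, with 1 point for each of the 12 libraries (blue Igf2bp3+/-, red Igf2bp3-/-, filled circles RNA-seq, open triangles RNC-seq). Ccdc136 stood alone at the top in RNA-seq, and its RNC-seq libraries, like those of Ccdc92 and Ccdc38, lay below all of its RNA-seq libraries, whereas the red and blue circles of most genes lay close together.

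At the other end, 9 members did not reach a mean of 0.1 FPKM over the RNA-seq libraries and were not tested there: Ccdc8, Ccdc69, Ccdc80, Ccdc102a, Ccdc120, Ccdc141, Ccdc149, Ccdc162 and Ccdc167. Among them, Ccdc80, which encodes a secreted matrix protein of connective tissue, was at 0.0787, 0.133 and 0.0376 FPKM in Igf2bp3+/- RNA-seq.

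A feature that the choice by symbol did not use was the X-box, the DNA element bound by RFX factors, which are known for switching on ciliary genes. RefSeq promoters (GRCm38.p6, 250 bases before to 50 after the start) were available for 107 members, and 9 of them (8.41%) held the X-box letters GTNNCCNNGGNNAC, against 2.16% of the 27025 genes with a promoter and 2.26% of the 17492 protein-coding ones. Their mean FPKM in Igf2bp3+/- RNA-seq ranged from 1.22 (Ccdc47) to 90.6 (Ccdc13), with a median of 18.9. The cyclic AMP response element TGACGTCA, a site class read by the spermatid factor CREM, was in 3 of the 107 (2.80%), against 2.03% of all genes. No member held both motifs. They were chosen with results known, each reads the same on both strands, and a match is a description of the letters and not of binding. The windows below lie upstream of the start on the minus strand, are written 5′ to 3′ on that strand and show the X-box in capitals for the centriolar satellite gene Ccdc13 (chr9:121839476-121839529), the dynein arm docking gene Ccdc151 (chr9:22002635-22002688), Ccdc175 (chr12:72185030-72185063) and the endoplasmic reticulum gene Ccdc47 (chr11:106216428-106216481).
Ccdc13: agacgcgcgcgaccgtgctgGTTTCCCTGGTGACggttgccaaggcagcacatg
Ccdc151: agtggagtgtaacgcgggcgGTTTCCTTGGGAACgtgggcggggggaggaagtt
Ccdc175: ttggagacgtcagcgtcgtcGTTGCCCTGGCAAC
Ccdc47: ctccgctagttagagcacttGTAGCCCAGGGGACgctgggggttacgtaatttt

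The first comparison asked whether the mRNA level of Ccdc genes differed between genotypes. Among the 126 members tested, none passed the limit of 0.05 after Benjamini-Hochberg adjustment in limma, where 0.256% of all 20352 genes tested did. At an unadjusted p under 0.05, 16 members were higher in Igf2bp3-/- (12.7%, against 10.4% of all genes) and 2 were lower (1.59%, against 5.32%). Libraries of the 2 genotypes stood fully apart for 24 members (19.0%, against 22.7% of all genes). The median log2 difference was 0.08 over the members and 0.05 over all genes, on the log2(FPKM + 0.1) scale, which understates the change of low genes. Ccdc85b, singled out here for its values, had the smallest adjusted p (0.157). The table lists this gene at 0 in all 3 libraries of Igf2bp3+/-, and in Igf2bp3-/- it was at 0.128, 0.324 and 0.213 FPKM. Its exons share 24.7% of their bases with Fosl1 on the opposite strand.

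The well-expressed members with the smallest p for a higher level in Igf2bp3-/- were Ccdc63, Ccdc24 and Ccdc89. Ccdc63, a docking factor for the outer dynein arms of the sperm tail, was at 128, 123 and 121 FPKM in Igf2bp3+/- and 148, 152 and 171 FPKM in Igf2bp3-/- RNA-seq. Ccdc24 was at 20.2, 20.0 and 21.9 FPKM against 24.7, 27.8 and 27.3, and its exons share 40.1% of their bases with genes on the same strand (B4galt2 and Gm17114) and 31.8% with Slc6a9 on the other, which makes its level uncertain. Ccdc89 was at 158, 166 and 152 FPKM against 187, 199 and 231. In all of these the libraries of the genotypes stood apart, but the log2 differences of 0.34 ± 0.09, 0.36 ± 0.09 and 0.37 ± 0.10 (SE) did not pass the limit (adjusted p = 0.171, 0.179 and 0.180). The round spermatid markers above had a median log2 difference of 0.39 in the same direction. Whether the make-up of the sorted cells had a part in these values was not tested.

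In the lower direction the smallest p-values belonged to Ccdc88a, Ccdc88c and Ccdc36. Ccdc88a encodes girdin and Ccdc88c encodes Daple, related proteins that link G-protein signalling to actin and, for Daple, to Dishevelled. Ccdc88a was at 13.6, 12.6 and 11.5 FPKM in Igf2bp3+/- and 11.1, 9.12 and 9.81 FPKM in Igf2bp3-/- RNA-seq. Ccdc88c was at 9.82, 11.9 and 13.3 FPKM against 9.36, 9.71 and 8.01. Ccdc36, which encodes the meiotic chromosome axis protein IHO1, was at 1.69, 1.34 and 1.68 FPKM against 1.29, 1.36 and 1.06, and its libraries overlapped. The log2 differences were -0.33 ± 0.12, -0.36 ± 0.14 and -0.32 ± 0.18 (adjusted p = 0.251, 0.276 and 0.425). The members of the axoneme list had a median log2 difference of 0.15 over 14 genes, between -0.12 and 0.35, and none passed the limit.

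**Figure D2:**
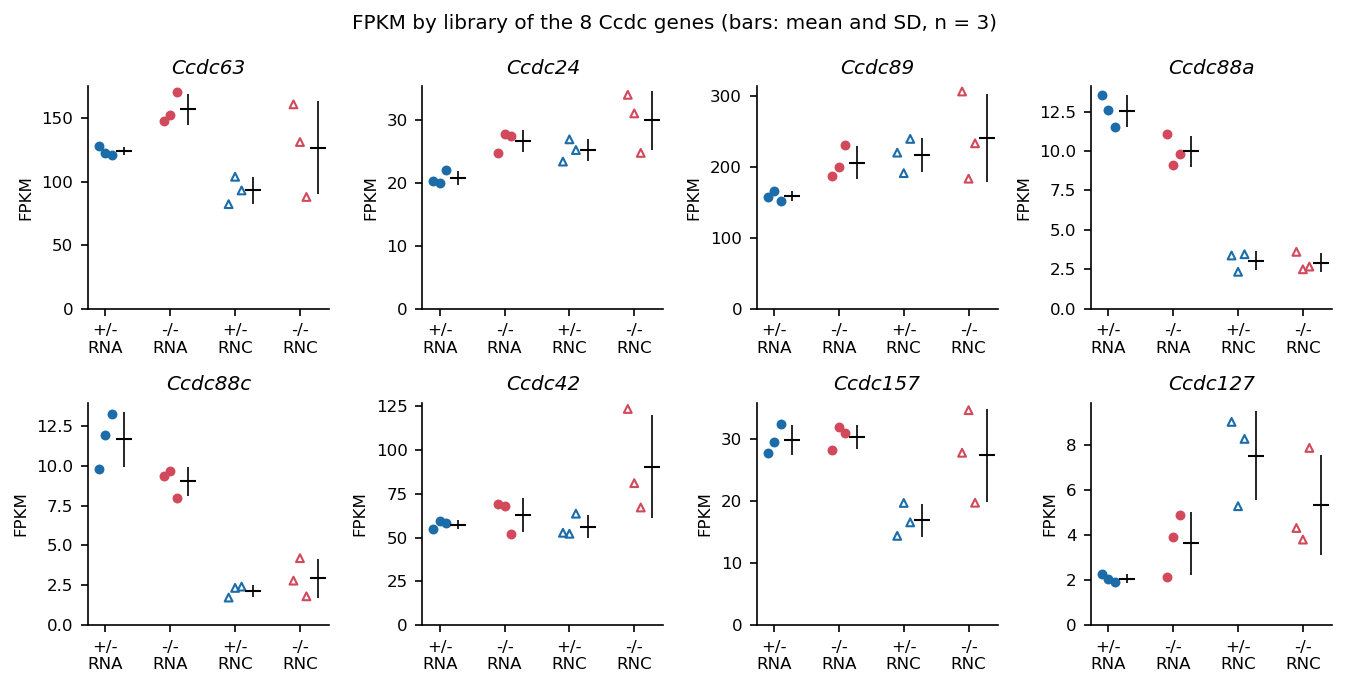
FPKM on linear axes of 8 Ccdc genes nearest to a genotype difference in RNA-seq, RNC-seq or translational efficiency, by genotype (+/- blue, -/- red) and assay (circles RNA-seq, triangles RNC-seq), with 1 point per library and black bars for the mean and SD (n = 3). None of these genotype differences passed the adjusted limit, and in Igf2bp3-/- RNC-seq the points of Ccdc63, Ccdc42 and Ccdc157 were spread more widely than in Igf2bp3+/-.

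The second comparison asked the same of the polysome-bound mRNA. Of 121 members tested, none passed the limit, where 0.115% of all 19051 genes did. At an unadjusted p under 0.05, 4 members were higher in Igf2bp3-/- (3.31%, against 5.36% of all genes) and 0 were lower (against 1.12%). The libraries did not overlap for 10 members (8.26%, against 11.3%). The median log2 difference was 0.10 over the members and 0.13 over all genes. With libraries set to a common median, the all-gene value moved by -0.12, to 0.01, and that of the members to -0.02.

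Ccdc42, which is needed for the head-to-tail coupling apparatus of sperm, was at 52.7, 52.2 and 63.7 FPKM in Igf2bp3+/- and 124, 81.1 and 67.2 FPKM in Igf2bp3-/- RNC-seq. Ccdc157, an acrosome gene, was at 14.4, 19.7 and 16.6 FPKM against 27.8, 34.7 and 19.8. Ccdc126 was at 1.64, 1.49 and 1.12 FPKM against 2.98, 2.18 and 2.18. In each of these 3 the Igf2bp3-/- libraries lay above those of Igf2bp3+/-, with log2 differences of 0.65 ± 0.24, 0.67 ± 0.25 and 0.75 ± 0.28, and all had an adjusted p of 0.736, the smallest among the members. For a lower level the smallest p-values were those of Ccdc127 (-0.53 ± 0.31, adjusted p = 0.808), the centrosome gene Ccdc14 (-0.46 ± 0.28, adjusted p = 0.812) and the centriole gene Ccdc15 (-0.37 ± 0.25, adjusted p = 0.831).

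The third comparison took translational efficiency, the ratio of RNC-seq to RNA-seq, and asked whether it differed between genotypes. None of 120 members passed the limit, where 0.00543% of all 18414 genes did. At an unadjusted p under 0.05, 3 members were higher in Igf2bp3-/- (2.50%, against 5.54% of all genes) and 2 were lower (1.67%, against 1.58%). The median log2 difference was -0.01 over the members and 0.06 over all genes. The members nearest to a higher efficiency were Ccdc157 (0.65 ± 0.27, adjusted p = 0.686), Ccdc187 (0.50 ± 0.23, adjusted p = 0.697) and Ccdc33 (0.53 ± 0.24, adjusted p = 0.698). Those nearest to a lower one were Ccdc127 (-1.24 ± 0.45, adjusted p = 0.686), Ccdc110 (-0.50 ± 0.22, adjusted p = 0.689) and Ccdc160 (-0.64 ± 0.31, adjusted p = 0.708). Differences of the size of these estimates, each larger than its SE, did not pass the limit with 3 libraries per group.

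The largest differences among the Ccdc genes lay between the assays and not between the genotypes. In Igf2bp3+/-, 118 members were tested for polysome loading, the log2 difference of RNC-seq from RNA-seq. Of these, 48 were lower in RNC-seq (40.7%, against 25.1% of all 17942 genes) and 14 were higher (11.9%, against 18.6%). Of the 17942 genes, 12494 were protein coding with a coding length, as were 114 of the 118 members. The shares of all genes here, in Igf2bp3-/- and in the lists below are therefore not those of protein-coding genes. The latter are given by coding length further on. The median was -0.27 over the members and -0.09 over all genes, and single members ranged from -2.39 to 1.78. FPKM is relative within a library, so loading is read against all genes. Setting libraries to a common median shifted the all-gene value by 0.16, to 0.07, and changed the members' split to 38 lower and 25 higher, beside 20.4% lower and 25.8% higher over all genes. The members' median stood at -0.18 from that of all genes as deposited and at -0.35 with quantile scaling, under which 46 were lower and 13 higher, beside 22.5% lower and 23.5% higher over all genes. Leaving out each of the 6 libraries in turn kept 33 of the 48 lower calls and 8 of the 14 higher ones every time. With RNA-seq replicate 1 left out, 36 members were lower (30.5%, against 20.2% of all genes). With replicate 2 left out, 35 were lower (29.7%, against 19.5%). In share of the summed FPKM, the members were at 1.23% to 1.26% in Igf2bp3+/- RNA-seq and at 0.787% to 0.923% in its RNC-seq. A single symbol, CT010467.1, held 9.22% to 13.3% of the sum in this RNA-seq and 15.9% to 19.4% in this RNC-seq, which lowers all other shares. Without that symbol, the members' share was 1.36% to 1.41% in RNA-seq and 0.960% to 1.13% in RNC-seq.

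In Igf2bp3-/-, 33 of 120 members were lower in RNC-seq (27.5%, against 10.9% of all 18456 genes) and 5 were higher (4.17%, against 10.1%). The median was -0.34 over the members and -0.04 over all genes. These counts rested on few libraries. Without Igf2bp3-/- RNA-seq replicate 1, 10 members were called (all lower, 8.33%, against 3.60% of all genes). Without RNA-seq replicate 2 the number was 14 (11.7%, against 4.45%), and without RNA-seq replicate 3 it was 11 (9.17%, against 4.70%), again all lower. Without RNC-seq replicate 3, 20 were lower (16.5%, against 6.97% of all genes) and 2 higher (beside 1042 of all genes), and the median moved to -0.11. Of the 33 lower calls, 10 were kept whichever library was left out, among them Ccdc39, Ccdc40, Ccdc88a, Ccdc88c, Ccdc146 and Ccdc180, and of the 5 higher calls 0 were.

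Of the 117 members tested in both genotypes, 29 were lower in RNC-seq in both, which is 60.4% of those lower in Igf2bp3+/- and 87.9% of those lower in Igf2bp3-/-. Higher in both were 3, namely Ccdc34os, Ccdc90b and Ccdc182, and 0 were called in opposite directions. The loading of the genotypes, which share no libraries, had the same sign for 104 of the 117, and r was 0.897 (Pearson) and rho 0.899 (Spearman) across the members, which do not replicate one another. These counts and correlations were not taken over all genes, so the likeness of the genotypes is not shown to be particular to Ccdc genes. A further 19 members were lower past the limit in Igf2bp3+/- and not in Igf2bp3-/-, and 4 the other way round, but the test of that difference is the translational efficiency comparison above, in which none passed.

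**Figure D3:**
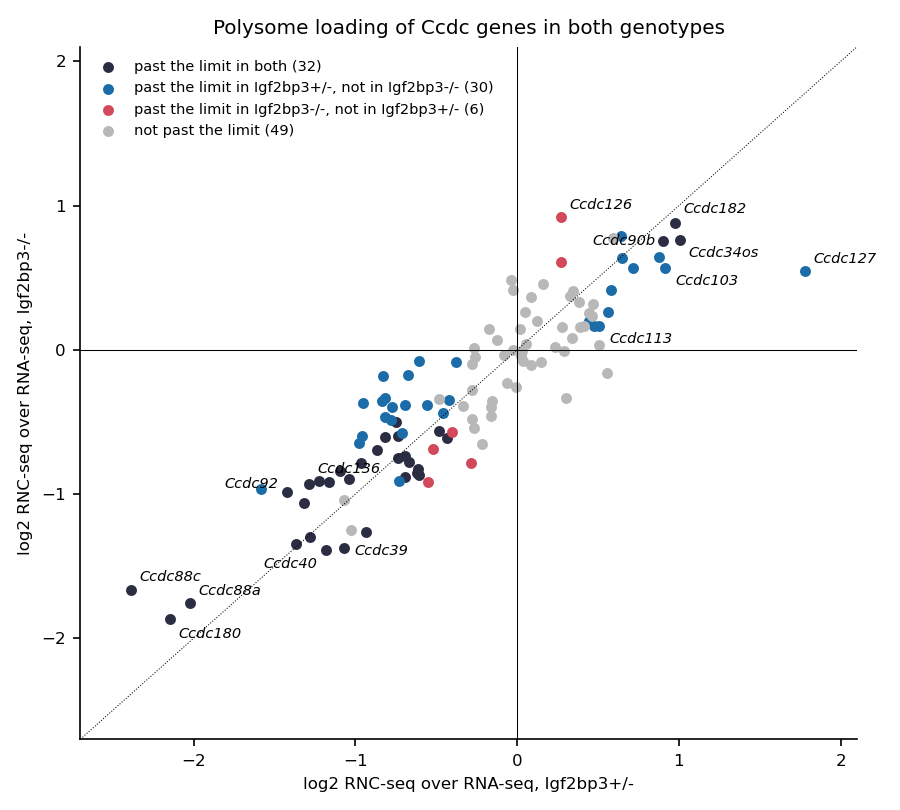
Polysome loading (log2 RNC-seq over RNA-seq) of the 117 Ccdc genes tested in both genotypes, Igf2bp3+/- on the x axis and Igf2bp3-/- on the y axis, with colours for the adjusted limit of 0.05 and a dotted line of equality. Of the 117, 32 passed in both (29 lower and 3 higher), and Ccdc88c, Ccdc180 and Ccdc88a lay farthest to the lower left.

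The strongest depletion from polysomes was in Ccdc88c, Ccdc180 and Ccdc88a. Ccdc88c (chr12:100911523-101029056, minus strand) was at 9.82, 11.9 and 13.3 FPKM in RNA-seq and 1.73, 2.33 and 2.41 FPKM in RNC-seq of Igf2bp3+/-, a log2 difference of -2.39 ± 0.19 (adjusted p = 6.93e-05). In Igf2bp3-/- RNC-seq it was at 2.79, 4.20 and 1.80 FPKM (-1.66 ± 0.28, adjusted p = 0.00571). Ccdc180 (chr4:45890303-45950774, plus strand) was at 17.8, 18.7 and 20.2 FPKM against 3.47, 3.89 and 5.43 in Igf2bp3+/- (-2.15 ± 0.18, adjusted p = 8.57e-05). Every RNC-seq library of both genes lay far below every RNA-seq library in both genotypes. Ccdc88a (chr11:29373658-29510808, plus strand) was at 3.37, 2.33 and 3.45 FPKM in Igf2bp3+/- RNC-seq (-2.02 ± 0.19, adjusted p = 0.000118) and 3.60, 2.49 and 2.66 FPKM in Igf2bp3-/- RNC-seq (-1.76 ± 0.20, adjusted p = 0.00192). The third gene of the girdin family, Ccdc88b, was at 11.1, 9.70 and 11.8 FPKM in RNA-seq and 5.00, 6.61 and 7.48 FPKM in RNC-seq of Igf2bp3+/- (-0.78 ± 0.18, adjusted p = 0.00827). All 3 girdin family genes were thus lower there (25.1% of all genes), and 2 of the 3 were lower in Igf2bp3-/- (10.9%). All 3 have over 3000 coding bases, a class in which 71.3% of all protein-coding genes were lower in Igf2bp3+/- and 37.7% in Igf2bp3-/-.

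The axoneme list held 14 genes of the table, at a median of 69.7 FPKM in Igf2bp3+/- RNA-seq and between 23.3 and 219. In Igf2bp3+/-, 8 were lower in RNC-seq (where 25.1% of all genes were), 2 were higher (where 18.6% were) and 4 did not pass, with a median loading of -0.46. In Igf2bp3-/-, 8 were lower (where 10.9% of all genes were), none was higher (where 10.1% were) and 6 did not pass, with a median of -0.58. The same shares of all genes stand behind the lists that follow, and they are not matched for coding length. Ccdc39 (2811 coding bases) is in a class where 42.7% of all protein-coding genes were lower in Igf2bp3+/-, and Ccdc40 (3786) in one with 71.3%. Ccdc103 (711) and Ccdc113 (1131) are in a class with 15.7% lower and 24.9% higher. The part of length in the lists was not tested. The axoneme list was not even, and the genes named next lay on both sides of 0.

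Ccdc39 and Ccdc40 encode the ruler that sets the repeat length of the axoneme, on which the dynein arms and radial spokes are placed. Ccdc39 (chr3:33812362-33844310, minus strand) was at 69.1, 69.8 and 55.8 FPKM in RNA-seq and 34.0, 21.2 and 39.9 FPKM in RNC-seq of Igf2bp3+/-. Ccdc40 (chr11:119228572-119265238, plus strand) was at 57.0, 59.3 and 60.8 FPKM against 24.8, 27.5 and 25.8. Both were lower in polysomes in both genotypes, by -1.07 ± 0.22 and -1.18 ± 0.11 in Igf2bp3+/- (adjusted p = 0.00493 and 0.000132) and by -1.38 ± 0.15 and -1.39 ± 0.28 in Igf2bp3-/- (adjusted p = 0.00153 and 0.0106). The ratio of Ccdc39 to Ccdc40 FPKM ranged from 0.918 to 1.21 over the Igf2bp3+/- RNA-seq libraries and from 0.773 to 1.55 over the Igf2bp3+/- RNC-seq libraries. In Igf2bp3-/- it ranged from 1.13 to 1.22 in RNA-seq and from 0.881 to 2.05 in RNC-seq, so the ratio was less even between RNC-seq libraries in both genotypes. Exons of Ccdc39 share 16.9% of their bases with the opposite-strand gene Ttc14.

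Ccdc96 and Ccdc113 encode another pair of partners, a complex beside the dynein regulators of the axoneme, and they did not move together. Ccdc96 was at 93.0, 91.1 and 87.6 FPKM in RNA-seq and 45.3, 49.0 and 55.3 FPKM in RNC-seq of Igf2bp3+/- (-0.86 ± 0.12, adjusted p = 0.000666). Ccdc113 was at 233, 227 and 198 FPKM against 350, 249 and 342 (0.50 ± 0.15, adjusted p = 0.0268), a call that was kept without RNC-seq replicate 2 and lost without any of the other libraries (adjusted p up to 0.0883). In Igf2bp3-/- the first was lower (-0.69 ± 0.21, adjusted p = 0.0410), a call lost without any 1 RNA-seq library or RNC-seq replicate 3 (adjusted p up to 0.149), and the second did not pass (0.16 ± 0.21, adjusted p = 0.614). The ratio of Ccdc96 to Ccdc113 FPKM fell from between 0.400 and 0.442 in Igf2bp3+/- RNA-seq to between 0.130 and 0.196 in Igf2bp3+/- RNC-seq, and from between 0.373 and 0.381 to between 0.152 and 0.284 in Igf2bp3-/-, with no overlap between the assays. This ratio is unchanged by any single scaling factor per library, which quantile scaling is not.

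Among the docking factors of the outer dynein arms that carry a Ccdc symbol, Ccdc151 had the lowest loading in Igf2bp3+/-. It was at 51.4, 52.3 and 53.8 FPKM in RNA-seq and 29.4, 26.1 and 34.2 FPKM in RNC-seq of Igf2bp3+/- (-0.82 ± 0.13, adjusted p = 0.00138). Ccdc114 was lower by -0.43 ± 0.12 (adjusted p = 0.0183) and its sperm counterpart Ccdc63 by -0.42 ± 0.12 (adjusted p = 0.0216). The first of these calls was lost without RNA-seq replicate 2 or 3 or RNC-seq replicate 1, and the second without RNA-seq replicate 1 or 2 or RNC-seq replicate 1 or 3, with adjusted p up to 0.0812 and 0.0819. Centring libraries on their median ended both. The tail gene Ccdc146 was at 30.4, 29.2 and 28.9 FPKM in RNA-seq and 10.8, 10.5 and 15.5 FPKM in RNC-seq (-1.28 ± 0.17, adjusted p = 0.000514). Ccdc103, which helps the dynein arms to assemble, went the other way: it was at 24.2, 24.0 and 21.8 FPKM in RNA-seq and 49.9, 36.2 and 47.2 FPKM in RNC-seq (0.92 ± 0.15, adjusted p = 0.00145). Ccdc65, a core subunit of the nexin-dynein regulatory complex, was at 182, 173 and 181 FPKM against 187, 171 and 211, and its loading of 0.08 ± 0.12 did not pass.

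The partners of these genes that carry other symbols were listed for comparison, with earlier results known. Of 9 further genes of the nexin-dynein regulatory complex, 7 were lower in polysomes and none was higher in Igf2bp3+/- (25.1% and 18.6% of all genes), and 4 were lower in Igf2bp3-/- (10.9% of all genes). Examples in Igf2bp3+/- were Tcte1 (-1.42 ± 0.14, adjusted p = 0.000141), Drc1 (-1.04 ± 0.14, adjusted p = 0.000568) and Gas8 (-1.02 ± 0.12, adjusted p = 0.000331). Of 3 further outer arm docking genes, 2 were lower in Igf2bp3+/- and 1 in Igf2bp3-/-. Armc4, which encodes an armadillo-repeat subunit of the docking complex, had the lowest loading of these (-1.22 ± 0.18 in Igf2bp3+/-, adjusted p = 0.00104).

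Among the 10 genes of sperm head and tail assembly, 4 were lower and 1 was higher in polysomes of Igf2bp3+/- (25.1% and 18.6% of all genes), and 2 were lower in Igf2bp3-/- (10.9% of all genes). Ccdc136, the most abundant member, was at 651, 651 and 703 FPKM in RNA-seq and 233, 294 and 302 FPKM in RNC-seq of Igf2bp3+/- (-1.28 ± 0.13, adjusted p = 0.000168). In Igf2bp3-/- it was at 617, 635 and 694 FPKM against 355, 449 and 246 (-0.93 ± 0.22, adjusted p = 0.0180), so no RNC-seq library reached any RNA-seq library in either genotype, although the call in Igf2bp3-/- was lost without any 1 of its RNA-seq libraries (adjusted p up to 0.0724). The acrosome genes Ccdc87 (-0.81 ± 0.13, adjusted p = 0.00126) and Ccdc157 (-0.83 ± 0.15, adjusted p = 0.00245) were lower in Igf2bp3+/-. Ccdc28a was the single higher gene, at 0.58 ± 0.16 (adjusted p = 0.0179), and its call was lost without RNA-seq replicate 2 or 3 or RNC-seq replicate 1 or 3 (adjusted p up to 0.0623).

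Ccdc38 and Ccdc42 encode proteins that bind each other at the manchette and the sperm neck, and their loading differed. Ccdc38 was at 209, 201 and 206 FPKM in RNA-seq and 129, 102 and 143 FPKM in RNC-seq of Igf2bp3+/- (-0.73 ± 0.14, adjusted p = 0.00308), whereas Ccdc42 was at 54.6, 59.6 and 58.0 FPKM against 52.7, 52.2 and 63.7 (-0.04 ± 0.12, adjusted p = 0.841). The ratio of Ccdc38 to Ccdc42 FPKM was between 3.38 and 3.84 in Igf2bp3+/- RNA-seq and between 1.96 and 2.45 in Igf2bp3+/- RNC-seq. In Igf2bp3-/- it was between 2.77 and 4.03 in RNA-seq and between 0.865 and 1.71 in RNC-seq. The assays did not overlap in either genotype.

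Of the centrosome and ciliary base genes, 13 were in the table at a median of 3.25 FPKM, and 11 could be tested for loading. None was higher, 5 were lower in Igf2bp3+/- (25.1% of all genes) and 4 were lower in Igf2bp3-/- (10.9%). Ccdc92, which encodes a centriole protein, was by far the highest of this list, at 162, 177 and 173 FPKM in RNA-seq and 57.9, 68.4 and 65.1 FPKM in RNC-seq of Igf2bp3+/- (-1.42 ± 0.12, adjusted p = 7.13e-05). In Igf2bp3-/- RNC-seq the same gene was spread over 122, 90.4 and 55.9 FPKM (-0.99 ± 0.26, adjusted p = 0.0251), and this call too was lost without any 1 RNA-seq library (adjusted p up to 0.0880). The satellite gene Ccdc13 was at 84.3, 89.8 and 97.8 FPKM against 43.4, 62.5 and 54.3 in Igf2bp3+/- (-0.78 ± 0.15, adjusted p = 0.00362).

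**Figure D4:**
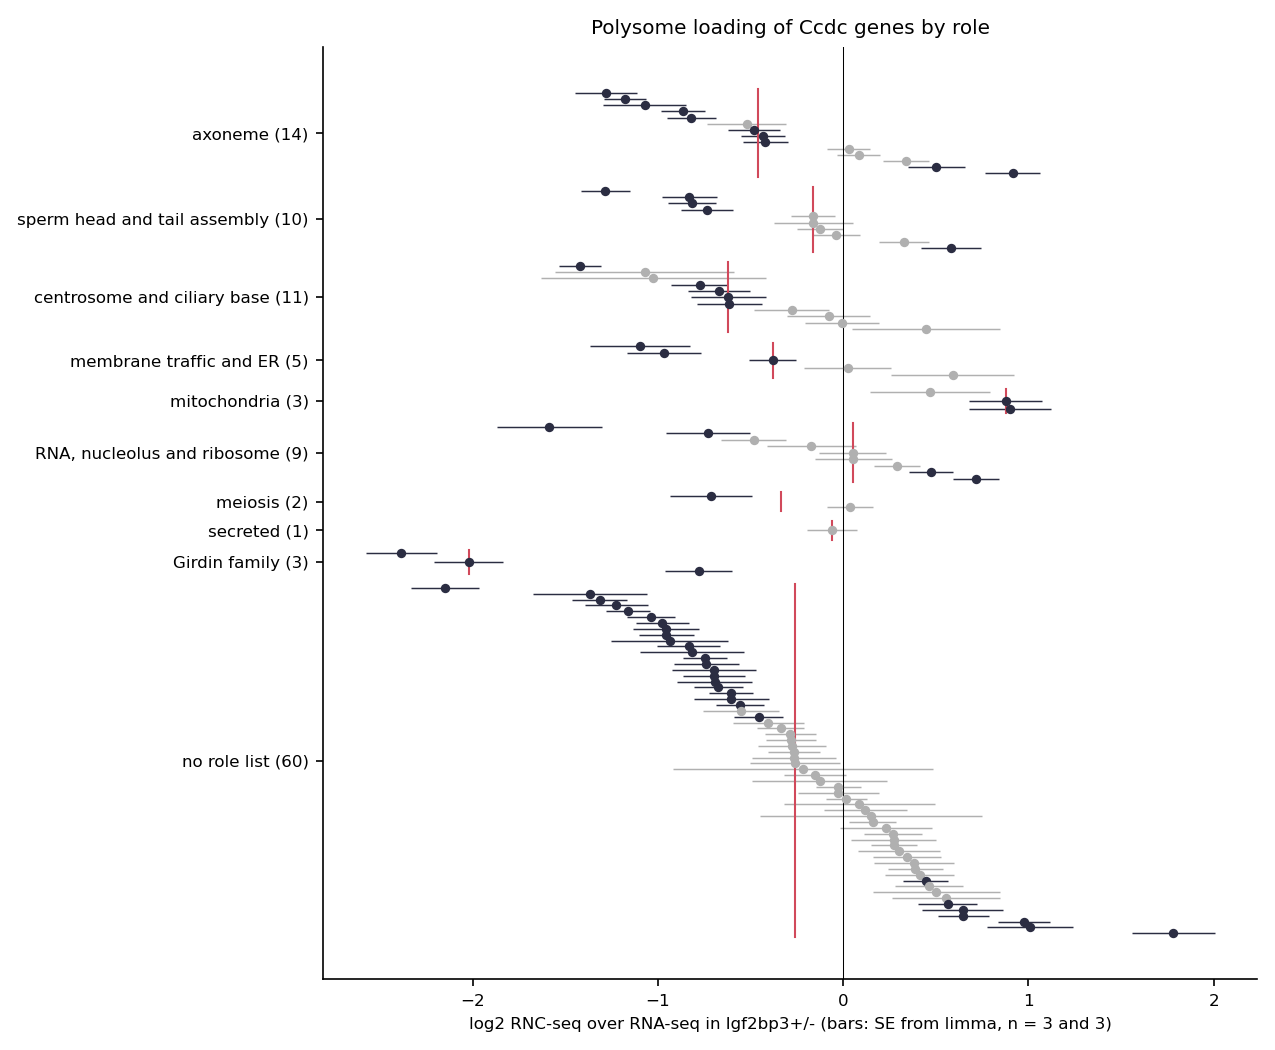
Polysome loading (log2 RNC-seq over RNA-seq) in Igf2bp3+/- of each tested Ccdc gene, 1 point per gene grouped by role with the number of genes in parentheses, horizontal bars for the SE from limma (3 libraries of each assay), dark points past the adjusted limit of 0.05 and grey points not past it. Red lines mark the median of a group, which was -2.02 for the girdin family, -0.62 for the centrosome and ciliary base list, -0.46 for the axoneme list and 0.88 for the mitochondrial list.

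Genes with general cell functions had medians in Igf2bp3+/- RNA-seq of 3.15 FPKM for membrane traffic and the endoplasmic reticulum, 1.87 for mitochondria and 2.17 for RNA processing, the nucleolus and the ribosome. These lay below the medians of the axoneme list (69.7) and the sperm head and tail list (47.5), while that of the centrosome list was 3.25. The traffic list reached up to 258 FPKM, in Ccdc91. Of 5 genes of membrane traffic and the endoplasmic reticulum, 3 were lower in polysomes of Igf2bp3+/- (25.1% of all genes) and 2 in Igf2bp3-/- (10.9%). Ccdc186, which acts in the sorting of secretory vesicles, had a loading of -0.97 ± 0.20 (adjusted p = 0.00470) and Ccdc47, a factor of membrane protein insertion, of -1.10 ± 0.27 (adjusted p = 0.0107) in Igf2bp3+/-. Ccdc93, a subunit of the Commander complex of endosomal recycling, was at 2.78, 4.13 and 2.55 FPKM in RNA-seq and 3.62, 2.51 and 3.41 FPKM in RNC-seq of Igf2bp3+/-, and these libraries overlapped. Of 13 other Commander genes, 6 were higher in polysomes of Igf2bp3+/- (18.6% of all genes) and none was lower (25.1%), and 1 was higher in Igf2bp3-/- (10.1%). Commd5 (0.99 ± 0.13, adjusted p = 0.000620) and Vps29 (1.20 ± 0.17, adjusted p = 0.000855) were among the higher ones.

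Of the 3 mitochondrial members, 2 were higher in polysomes of Igf2bp3+/- (18.6% of all genes) and none was lower (25.1%). All 3 have up to 1500 coding bases, a class in which 24.9% of all protein-coding genes were higher and 15.7% lower in Igf2bp3+/-. Ccdc58, which encodes a small protein of the intermembrane space, was at 7.74, 6.15 and 5.79 FPKM in RNA-seq and 15.1, 11.7 and 9.83 FPKM in RNC-seq (0.88 ± 0.20, adjusted p = 0.00673). Ccdc90b, related to a regulator of calcium uptake, was at 2.09, 1.84 and 1.68 FPKM against 4.56, 2.72 and 3.64 (0.90 ± 0.22, adjusted p = 0.0107), and in Igf2bp3-/- it was again higher (0.75 ± 0.23, adjusted p = 0.0435). Ccdc51 was at 0.47 ± 0.32 and did not pass.

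Of the 9 genes of RNA processing, the nucleolus and the ribosome, 2 were higher and 2 lower in Igf2bp3+/-, shares near the 18.6% and 25.1% of all genes, and none passed the limit in Igf2bp3-/-. The spliceosome genes Ccdc12 (0.72 ± 0.12, adjusted p = 0.00201) and Ccdc130 (0.47 ± 0.12, adjusted p = 0.0116) were higher in polysomes of Igf2bp3+/-, the latter not without RNA-seq replicate 1 (adjusted p = 0.0533). The nucleolar gene Ccdc137 was at 1.20, 0.856 and 0.831 FPKM in RNA-seq and 0.325, 0.234 and 0.200 FPKM in RNC-seq (-1.59 ± 0.28, adjusted p = 0.00228), and Ccdc9, a partner of the exon junction complex, was lower too (-0.73 ± 0.23, adjusted p = 0.0298), a call lost without RNA-seq replicate 1 or 2 or RNC-seq replicate 1 or 2 (adjusted p up to 0.107). Of the meiotic genes, Ccdc36 was lower (-0.71 ± 0.22, adjusted p = 0.0280, and up to 0.0931 without RNA-seq replicate 1 or 3 or RNC-seq replicate 1), and Ccdc155, which encodes the nuclear envelope protein KASH5, was at 45.8, 48.0 and 51.9 FPKM against 46.2, 48.3 and 55.2 (0.04 ± 0.12, adjusted p = 0.836).

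The highest loading of all members was that of Ccdc127 in Igf2bp3+/- (chr13:74350309-74365783, plus strand). It was at 2.25, 2.06 and 1.89 FPKM in RNA-seq and 9.02, 5.28 and 8.27 FPKM in RNC-seq, a log2 difference of 1.78 ± 0.22 (adjusted p = 0.000414). In Igf2bp3-/- it was at 2.12, 3.89 and 4.87 FPKM against 4.31, 3.79 and 7.86, where the assays overlapped (0.55 ± 0.35, adjusted p = 0.298). The exons of this gene share 28.8% of their bases with Lrrc14b on the opposite strand, and the use of strand in quantification is not stated. Ccdc182 was at 33.1, 26.2 and 25.4 FPKM against 58.7, 56.2 and 51.1 in Igf2bp3+/- (0.98 ± 0.14, adjusted p = 0.000800) and was also higher in Igf2bp3-/- (0.88 ± 0.24, adjusted p = 0.0291). Ccdc166 was higher in Igf2bp3+/- (0.65 ± 0.14, adjusted p = 0.00566).

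Members called higher in Igf2bp3-/- and not in Igf2bp3+/- were Ccdc126 (0.92 ± 0.23, adjusted p = 0.0217) and Ccdc6 (0.61 ± 0.19, adjusted p = 0.0469), a gene known as a fusion partner of RET in thyroid cancer. The calls of both, like those of Ccdc182, Ccdc34os and Ccdc90b in Igf2bp3-/-, were lost when any of the 3 Igf2bp3-/- RNA-seq libraries was left out.

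An antisense transcript was also found in the polysome fraction. Ccdc34os, annotated by GENCODE as antisense and lying within the Ccdc34 locus without sharing exonic bases with it (chr2:110031250-110050479, minus strand), was at 19.0, 18.2 and 10.8 FPKM in RNA-seq and 38.1, 27.8 and 28.9 FPKM in RNC-seq of Igf2bp3+/- (1.01 ± 0.23, adjusted p = 0.00764). In Igf2bp3-/- it was at 19.7, 19.5 and 19.7 FPKM against 28.3, 32.6 and 40.1 (0.76 ± 0.17, adjusted p = 0.0162). Ccdc34 itself, a sperm tail gene, was at 20.3, 21.0 and 16.5 FPKM against 23.3, 24.8 and 24.2 in Igf2bp3+/- (0.33 ± 0.14, adjusted p = 0.0814). Ccdc42os was at 5.75, 4.06 and 4.14 FPKM in RNA-seq and 6.50, 4.06 and 4.72 FPKM in RNC-seq of Igf2bp3+/-, which overlapped. Without strand, reads of an antisense transcript and of its sense partner's introns cannot be told apart.

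Among the members, as among all genes, lower loading went with a longer coding sequence. Over 114 protein-coding members with a length in GENCODE M21, loading in Igf2bp3+/- had a Pearson's r of -0.592 and a Spearman's rho of -0.543 with the log2 of the longest coding length, against -0.565 and -0.552 over 12494 protein-coding genes. In Igf2bp3-/- the values were -0.599 and -0.551 over 116 members, against -0.528 and -0.516 over 12906 genes. These are descriptions across genes of the same libraries, which are not independent replicates. The median coding length was 1428 bases among the members and 1329 among all genes in Igf2bp3+/-.

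By class of coding length, 14 of 61 members of up to 1500 bases were lower in polysomes of Igf2bp3+/- (23.0%, against 15.7% of all genes of that class), as were 23 of 39 between 1501 and 3000 bases (59.0%, against 42.7%) and 11 of 14 over 3000 bases (78.6%, against 71.3%). Of the 14 higher members, 13 had up to 1500 coding bases and the other was Ccdc34os, which has none. In Igf2bp3-/- the shares that were lower were 9.68%, 42.5% and 71.4% of the members, against 5.37%, 17.8% and 37.7% of all genes. The 3 members with the lowest loading are among the longest, with coding lengths of 6048 bases for Ccdc88c, 5535 for Ccdc88a and 4992 for Ccdc180. Ccdc92 stood apart from this order with 942 coding bases and a loading of -1.42, as did Ccdc137. Among long members, Ccdc187 with 6606 coding bases had a loading of -0.67 in Igf2bp3+/-. Ccdc7a with 4926 bases was at -0.40 and Ccdc57 with 3048 at 0.45 there, both not past the limit. Since RNC-seq collected mRNAs with 4 or more ribosomes, the fraction holds no account of the mRNAs with fewer, and the part of length in the loading of single members was not tested.

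**Figure D5:**
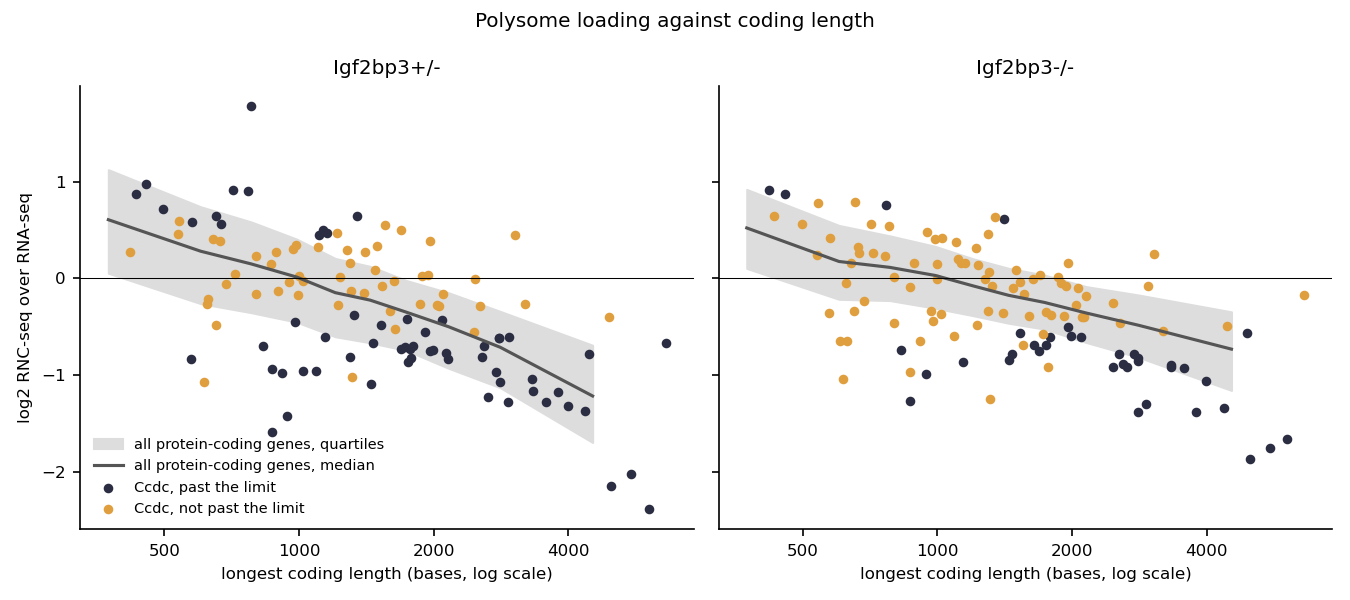
Polysome loading (log2 RNC-seq over RNA-seq) against the longest coding length in bases (log scale), Igf2bp3+/- on the left and Igf2bp3-/- on the right, with points for Ccdc genes (dark past the adjusted limit of 0.05, orange not past it) and a line with a grey band for the median and quartiles of all protein-coding genes in 10 bins of length. Both the line and the points fell with length, and Ccdc88c, Ccdc88a and Ccdc180 were the lowest points of the Igf2bp3+/- panel, at its right.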

How the data were processed

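The authors deposited 1 table of FPKM per gene symbol for the 12 libraries (4 groups of 3). The submitters' processing notes and the study's methods name Trim Galore 0.6.6 for trimming, HISAT2 for alignment to GRCm38 and StringTie 2.1.7 for quantification. The annotation release and the use of strand are not given in the sources used here. The labels name a directional poly(A) kit and 1 instrument, the methods another library method and instrument. FPKM is not a count, so the study's DESeq2 was not run, and depth is unknown beyond the relative estimate.

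Of 28668 symbols, 25 turned into dates by a spreadsheet were left out (0.0995% of the summed FPKM). The fits covered every gene with a mean FPKM above 0.1 (in each assay where both enter), on log2(FPKM + 0.1), with limma 3.58.1 (moderated variances with an intensity trend, two-sided, Benjamini-Hochberg over all genes tested, limit 0.05) in R 4.3.3. The script was tested on simulated data. There were 5 comparisons: genotype within RNA-seq and within RNC-seq, genotype by assay over the 12 libraries for translational efficiency, and RNC-seq against RNA-seq within each genotype. Loading and efficiency are log2 ratios, and ± after a log2 difference is its SE. Depth limits precision most for members below 1 FPKM.

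Named were the 10 highest members, members of the role lists and, per comparison and direction, up to 8 past the limit with the largest change at a mean of at least 1 FPKM, or else the 3 with the smallest p. The members, lists and motifs were chosen with earlier results of these data known. Positions and lengths are from GENCODE M21. Exons of 49 members shared at least 1% of their bases with another gene (10 on the same strand, 43 on the opposite strand), which makes their values uncertain over that part. Ccdc3, Ccdc106 and Ccdc142 had a near-identical copy (BLAST 2.17.0, 95% identity or more along 50% or more of the transcript). Another pseudocount, filter and scaling, a fit over all libraries, a replicate block and leaving out each library were tried. The labels give no batch.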

Additional observations from a re-analysis of the deposited data

How the results depend on the processing

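No call changed direction in any alternative, but the members' median by genotype, which has no test, changed sign: quantile scaling put it at -0.01 in RNA-seq and -0.04 in RNC-seq, and centring at -0.02 in RNC-seq. The criterion of an unadjusted p below 0.05 and a difference above 1.5-fold was met by genotype by 2 members in RNA-seq (Ccdc127 and Ccdc85b), 3 in RNC-seq (Ccdc42, Ccdc126 and Ccdc157) and 2 in translational efficiency (Ccdc127 and Ccdc157). The share of all genes that met it was not counted, so these counts describe single genes and not the members as a list. For the unadjusted p alone, both shares are given with each comparison above. Centring libraries on their median moved the median loading in Igf2bp3+/- to -0.11. Leaving out 1 library gave 46 to 62 members called for loading in Igf2bp3+/- (median -0.37 to -0.19) and 10 to 45, from 38, in Igf2bp3-/- (median -0.30 to -0.11), the fewest without Igf2bp3-/- RNA-seq replicate 1 and the most without RNC-seq replicate 2. Without RNC-seq replicate 2 of the genotype, the lower calls were 39.7% of members in Igf2bp3+/- (24.1% of all genes) and 28.6% in Igf2bp3-/- (16.9%). In the genotype comparisons leaving out 1 library called 0 members each time, with medians of 0.02 to 0.11 (RNA-seq), 0.00 to 0.14 (RNC-seq) and -0.09 to 0.07 (translational efficiency). The labels do not say what a replicate number shares: deviations of same-numbered libraries correlated between -0.055 and 0.078 across assays and between -0.017 and 0.144 across genotypes. A replicate block called 61 members for loading in Igf2bp3+/- and 32 in Igf2bp3-/-, and 0 by genotype. The share of all genes called with this block is not given here, so these counts describe single genes. The block ended the loading calls of Ccdc9, Ccdc85c and Ccdc91 in Igf2bp3+/- and of Ccdc6 (adjusted p = 0.0628), Ccdc7a, Ccdc81, Ccdc96, Ccdc151, Ccdc154 and Ccdc181 in Igf2bp3-/-. Of 641 alternative values of the genes taken by size or p in each comparison, 615 kept their side of the limit and 26, all loading calls in Igf2bp3-/-, lost it. Over all members, the loading calls kept in every alternative fitted were 33 of 48 lower and 8 of 14 higher in Igf2bp3+/-, and 10 of 33 and 0 of 5 in Igf2bp3-/-, with no change of sign. The cause of the losses was not tested. Depth limits the members near or below 1 FPKM.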

Other observations

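Many coiled-coil genes have since been renamed and no longer carry the symbol. Of 19 such genes in the table, at a median of 34.5 FPKM in Igf2bp3+/- RNA-seq, 18 were tested for polysome loading, and in Igf2bp3+/- 8 were lower in RNC-seq (25.1% of all genes) and 4 were higher (18.6%), against 6 (10.9%) and 2 (10.1%) in Igf2bp3-/-. The list was put together with earlier results of these data known. Drc1 and Drc7, both lower in Igf2bp3+/-, also belong to the further genes of the nexin-dynein regulatory complex counted above. By limma with Benjamini-Hochberg adjustment over all genes, the sperm tail gene Cfap65 had the lowest loading of the list in Igf2bp3+/- (-2.09 ± 0.14, adjusted p = 4.2e-05). The study had singled out Cfap65 in these data for another result, as an IGF2BP3 target whose translation rose in the knockout. Its efficiency difference by genotype was 0.53 ± 0.34 here, in the study's direction but not past the limit (adjusted p = 0.737). The study's methods take efficiency as a ratio of FPKM and give no adjusted limit for its change, so the criteria are unlike. The loading of the centriole gene Cep83 (-1.22 ± 0.19, adjusted p = 0.00132) and the meiotic telomere gene Terb1 (-1.12 ± 0.21, adjusted p = 0.00298) was lower as well. On the higher side stood Washc3, an endosomal subunit of the WASH complex (1.49 ± 0.18, adjusted p = 0.000328), the mitochondrial Coa3, an assembly factor of cytochrome oxidase (1.38 ± 0.14, adjusted p = 0.000188), and Vps50, of endosomal recycling (0.83 ± 0.25, adjusted p = 0.0252), whose call was lost without RNA-seq replicate 3 or RNC-seq replicate 1 or 3 of Igf2bp3+/-. None of the 19 passed the limit by genotype in RNA-seq, nor any of the 18 tested in RNC-seq or translational efficiency.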
